A study of Mus musculus with 4 samples.

Results

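A set of 9 genes marking the steps from neural stem cell to immature neuron was followed in RNA of the dorsal hippocampus, from female mice on control intake and on 20-fold iodine. Sox2, Nes, Hes5 and Hopx mark stem cells, Eomes and Neurod1 intermediate progenitors, and Sox11, Dcx and Prox1 immature neurons. The genes were chosen by name, from knowledge of the lineage and with earlier results of these data known. Every array probe whose RefSeq transcript belongs to these genes was taken. This gave 13 of the 56605 non-control probes on the array and 9 of the 22911 genes that could be named. Of the 13 probes, 12 passed the scanner's flag for signal well above background on 2 or more arrays and were tested, so that each of the 9 genes kept at least 1 probe.

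The study hybridised Cy3-labelled total RNA to 4 Agilent 1-colour arrays, 2 from control mice (control replicates 2 and 3) and 2 from mice given 20-fold iodine (20-fold iodine replicates 2 and 3). Hippocampi were taken after a series of behavioural tests. Strain, age, the length of treatment and whether replicates are separate animals are not given in the sources used here, so the spread behind each p-value is that of these samples and may be technical. The arrays shared 1 slide and 1 scan, with controls in slide columns 1 and 2 and iodine samples in columns 3 and 4, so slide position and group cannot be told apart.

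In the dentate gyrus of rodents new granule neurons form after birth from radial glia-like stem cells of the subgranular zone. These cells divide into intermediate progenitors, which become migrating neuroblasts and then immature neurons that settle in the granule cell layer. Notch signalling keeps the stem cells undifferentiated, and its effector RBPJ switches on Hes genes, which repress the proneural factors. Thyroid hormone, whose synthesis uses iodine, is known to affect how progenitors of this zone survive and differentiate. The stem cell genes are not exclusive to stem cells, since Sox2, Hes5 and Hopx are also expressed in astrocytes and Nes in blood vessel cells. In a tissue extract, fewer cells of a type and less RNA per cell cannot be told apart.

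The results turn most on the stem cell genes Hes5 and Nes. Sequence before their transcription starts is shown because Hes5 is a direct Notch target and Nes a known target of SOX factors, through an intronic enhancer outside this window. Sequences are from the RefSeq promoter table of build GRCm38.p6, which held all 9 genes, and run 5′ to 3′. Within 250 bases before the Hes5 start, the core TGGGAA that RBPJ recognises occurred 2 times, counted on both strands, and 30 bases around each match are given with the core in capitals. The upstream match lies at chr4:154960685-154960714 (+ strand), with its core starting 226 bases before the start, and the downstream match at chr4:154960829-154960858 (+ strand), with its core starting 82 bases before the start.
Hes5 upstream core: agggcgagcgcgTTCCCAcagcccggacat
Hes5 downstream core: ggccgccgagtgTGGGAAcggccgcggcgc
The core was present in 21.6% of 32851 promoters of that length. Of the other members, only 1 of the 2 Prox1 starts had it, 1 time. The 250 bases before the Nes start, at chr3:87970843-87971092 (+ strand), held the SOX core ACAAT 1 time, on either strand, shown in capitals.
Nes promoter: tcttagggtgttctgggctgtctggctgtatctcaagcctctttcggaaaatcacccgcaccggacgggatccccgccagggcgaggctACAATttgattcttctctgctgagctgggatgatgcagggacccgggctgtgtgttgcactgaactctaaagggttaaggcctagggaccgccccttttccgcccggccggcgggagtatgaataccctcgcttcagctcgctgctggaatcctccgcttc
ACAAT was present in 27.7% of promoters. Among the members it was also found in the Hes5 window, 2 times, and in 1 of the Hopx windows. These matches describe letters only, and no binding was measured.

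Among the 9 genes, Hes5 and Nes were higher on both iodine arrays, Hopx was lower on both, and by their brightest probes the immature neuron genes Sox11, Dcx and Prox1 overlapped between groups. No probe of the 9 genes passed limma's threshold of 0.05 after Benjamini-Hochberg adjustment over the 38228 probes tested (adjusted p from 0.518 to 0.960). Over all probes 0 passed either, a background of 0%, while 25 passed with normexp background correction and 53 with an intensity trend and robust variances, none of them of the 9 genes. Of the 12 probes 8 were higher in iodine and 4 lower, against 52.4% and 47.6% of all probes. At an unadjusted p under 0.05 there were 4 of the 12 member probes, all higher in iodine, from Hes5 (both probes), Nes and Dcx (the dimmer of 2 probes). The count was lower when either iodine array or control replicate 3 was left out. Without control replicate 2 the probes in it changed. Nes and the dimmer Dcx probe dropped out, while Eomes came in, and so did Hopx, which was lower in iodine. Nes did not reach that limit in any fit with an array left out. With all 4 arrays, 3451 of all probes tested reached the limit, or 9.03%, with 5.89% higher and 3.14% lower. Control and iodine arrays did not overlap for 5 of the 12 probes, against 41.6% of all probes, a like share. With 1 probe per gene, the brightest, 5 genes were higher and 4 lower, against 45.7% and 54.3% of all genes, with a median log2 difference of 0.10 against -0.01 over 16793 genes.

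**Figure D1:**
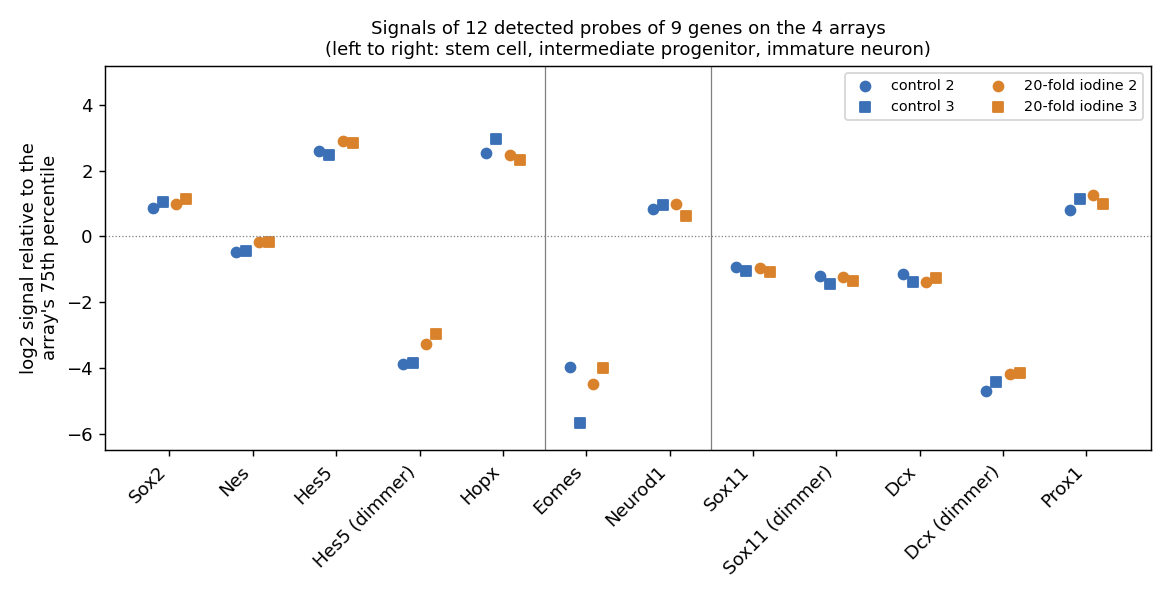
Log2 processed signal of each of the 12 detected probes, relative to the 75th percentile of its array, on the 2 control arrays (blue) and the 2 arrays of 20-fold iodine (orange), with replicate 2 as circles and replicate 3 as squares. Vertical lines part the 3 stages. Nes and both Hes5 probes lie higher on both iodine arrays, and the Eomes probe lies lowest on control replicate 3, at -5.69.

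All signals below are log2 processed signals relative to the 75th percentile of all non-control probes on the same array. A value of 0 is as bright as that percentile and negative values are dimmer. Probes bind with different strengths, so signals are compared between arrays and not between genes. Differences are 20-fold iodine minus control on this scale, with the standard error (SE) or 95% confidence interval of the limma fit and n = 2 arrays per group.

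Hes5, the basic helix-loop-helix repressor through which Notch holds stem cells back from differentiation, was brighter on both iodine arrays at both of its probes. Its brighter probe read 2.61 and 2.49 in the controls and 2.91 and 2.85 in iodine. The processed signals behind these values were 972 and 865.5 against 1128 and 1041 units. The groups did not overlap, and the gap between the groups was wider than the gap within either, 0.13 in the controls and 0.06 in iodine. The difference was 0.33 ± 0.09 (SE), a fold of 1.26 with an interval from 1.06 to 1.49 (limma, unadjusted p = 0.020, adjusted p = 0.532).

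The dimmer Hes5 probe read -3.88 and -3.85 in the controls and -3.29 and -2.98 in iodine. Its signals were 10.8 and 10.7 units in the controls and 15.4 and 18.3 in iodine, well above background on all 4 arrays. Its difference of 0.73 ± 0.13 (SE) was the largest among the 12 probes, a fold of 1.66 with an interval from 1.30 to 2.12 (limma, unadjusted p = 0.0042, adjusted p = 0.518). Both probes thus had the same direction, and the size at the dimmer one came to 0.20 with normexp background correction. Probes within 0.5 log2 of the dimmer probe's mean signal, 4983 in all, had a median difference of 0.05, and 13.9% of them had an unadjusted p under 0.05. Around the brighter Hes5 probe these values were -0.01 and 3.99%.

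Nes encodes nestin, an intermediate filament protein of neural stem cells and of proliferating vessel cells. Its single probe read -0.46 and -0.43 in the controls and -0.18 and -0.17 in iodine. Replicates of each group lay within 0.03 of each other, and both iodine arrays were above both controls. The difference was 0.27 ± 0.08 (SE), a fold of 1.21 with an interval from 1.04 to 1.40 (limma, unadjusted p = 0.022, adjusted p = 0.532). It was 0.26 to 0.29 when single arrays were left out, the narrowest such range of the 12 probes. Of the 6 endothelial and meningeal markers, 4 were also higher in iodine, among them Cldn5, a tight junction gene of brain vessels, at 0.61 ± 0.25 (SE) and Pecam1, an endothelial adhesion gene, at 0.25 ± 0.13. Flt1, a further vessel gene, had 0.10 ± 0.08. These 3 vessel markers were higher on both iodine arrays, as were 17.9% of all genes by their brightest probe. The meningeal genes Dcn, Col1a2 and Col1a1 had -0.35 ± 0.22, -0.28 ± 0.34 and 0.18 ± 0.25. Flt1 and the meningeal genes were named after their values were seen. The summed signals of the 6 markers, in units of the 75th percentile, were 25.7 and 31.6 in the controls and 24.4 and 31.0 in iodine. Dcn was the brightest of the 6 on every array. The part of these markers in the Nes value was not tested.

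Sox2, the transcription factor that maintains stem cell identity, showed no separation of the groups. Its probe read 0.87 and 1.04 in the controls and 0.98 and 1.13 in iodine. The difference was 0.10 (95% confidence interval -0.20 to 0.40, limma, adjusted p = 0.820), smaller than the gap between replicates of either group (0.17 in the controls and 0.15 in iodine). The interval allows a fold from 0.87 to 1.32. Sox2 is also made by ependymal cells, and 5 of 5 ependymal markers were detected. Their median deviation from the 4-array mean was -0.20 and 0.06 in the controls and -0.14 and 0.21 in iodine, highest on the array where Sox2 was highest, and their part in its values was not tested.

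Hopx, a small homeodomain protein that binds no DNA by itself and marks quiescent stem cells, was the stem cell gene with the opposite sign. It read 2.54 and 2.98 in the controls and 2.49 and 2.34 in iodine. Both iodine arrays were below both controls, narrowly so for control replicate 2. The difference was -0.34 ± 0.18 (SE), and its interval of -0.82 to 0.14 included 0 (limma, adjusted p = 0.643). Control replicate 3 was the brightest of the 4 arrays, and without it the difference was -0.12, against -0.56 without control replicate 2.

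**Figure D2:**
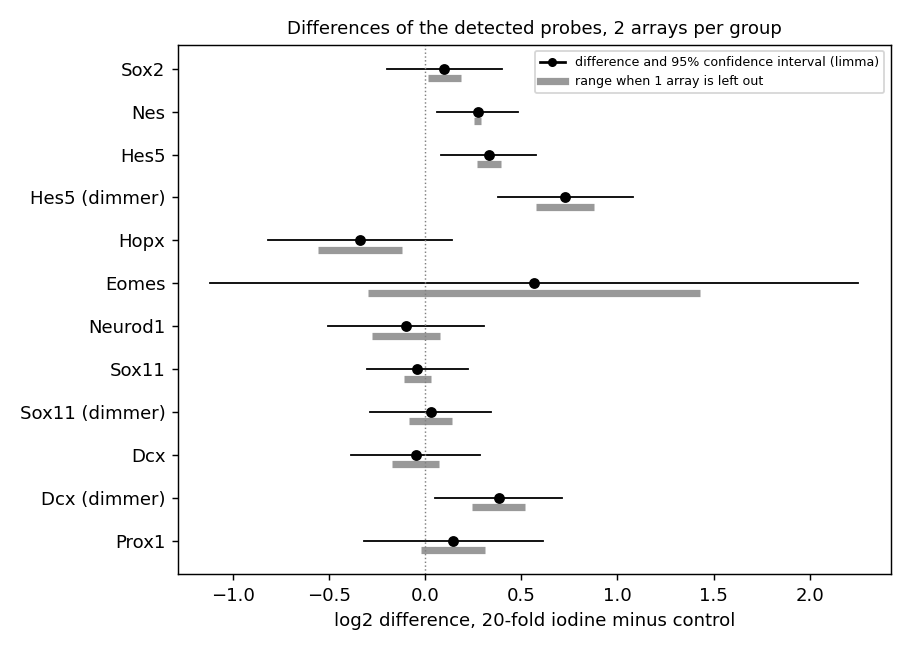
Log2 difference of each detected probe, 20-fold iodine minus control, with its 95% confidence interval from limma (black), and the range of the difference when each of the 4 arrays is left out in turn (grey). The intervals of 8 of 12 probes include 0, and those of Nes, both Hes5 probes and the dimmer Dcx probe do not, before adjustment over all probes.

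Eomes, which encodes the T-box factor TBR2 of intermediate progenitors, was near the detection limit. Its detected probe read -3.96 and -5.69 in the controls and -4.50 and -4.01 in iodine, and on control replicate 3 it was not well above background, with a signal of 2.99 units against 6.62 to 10.2 on the other 3 arrays. The controls lay on either side of both iodine arrays. The difference of 0.57 ± 0.62 (SE) had an interval of -1.12 to 2.25 (limma, adjusted p = 0.820), the widest of the 12 probes. Without control replicate 3 it was -0.30, and without control replicate 2 it was 1.43. The other Eomes probe, made to another transcript, was not well above background on any array.

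Eomes is also expressed by Cajal-Retzius neurons, the reelin-secreting cells of the hippocampal fissure, whose 5 markers were all detected. The transcription factor gene Lhx1 of these cells read -3.15 and -3.66 in the controls and -3.29 and -2.89 in iodine, and Lhx5 read -5.05 and -5.62 in the controls and -5.20 and -4.82 in iodine. Both were lowest on control replicate 3, as Eomes was, and Lhx5 was well above background on only 2 arrays. Reln and Trp73 differed less between arrays and were lowest on 20-fold iodine replicate 2. Ndnf was lowest on 20-fold iodine replicate 3. The median deviation of the 5 markers from their 4-array means was 0.10 and -0.01 in the controls and -0.04 and 0.11 in iodine. Lhx1 and Lhx5 were chosen after their values were seen. The markers' summed signal was 4.74 and 4.22 in the controls and 3.93 and 4.26 in iodine. Their part in the Eomes values was not tested.

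Neurod1, a proneural factor that drives progenitors to become granule neurons, did not separate the groups. Its probe read 0.85 and 0.95 in the controls and 0.98 and 0.63 in iodine. The iodine arrays held both the highest and the lowest value, and the difference of -0.10 (95% confidence interval -0.50 to 0.30) was smaller than the gap of 0.36 between them (limma, adjusted p = 0.874). Without 20-fold iodine replicate 3 the sign turned, to 0.08.

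Sox11, a SOX factor of committed neuroblasts and immature neurons, differed little between arrays. Its brighter probe read -0.92 and -1.05 in the controls and -0.97 and -1.07 in iodine, and its other probe -1.21 and -1.43 in the controls and -1.23 and -1.35 in iodine. The groups overlapped at both probes. The differences were -0.04 (95% confidence interval -0.30 to 0.22) and 0.03 (-0.29 to 0.34), with limma adjusted p of 0.930 and 0.960. The intervals allow folds from 0.81 to 1.17 at the brighter probe and from 0.82 to 1.27 at the other.

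Dcx encodes doublecortin, the microtubule-binding protein used as the standard label of migrating neuroblasts and immature neurons. Its brighter probe read -1.15 and -1.40 in the controls and -1.40 and -1.25 in iodine. The groups overlapped, with a difference of -0.05 (95% confidence interval -0.38 to 0.28, limma, adjusted p = 0.931), and the interval allows a fold from 0.77 to 1.22. The sign turned without control replicate 2 (0.07) or the iodine array of the same number (0.02).

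The second Dcx probe, designed to another RefSeq transcript of the gene, gave another picture at a far lower signal. It read -4.69 and -4.42 in the controls and -4.19 and -4.16 in iodine, or 6.14 and 7.20 units against 8.21 and 8.06. On control replicate 2 it was not well above background. Both iodine arrays were above both controls, with a difference of 0.38 ± 0.12 (SE) and an interval of 0.05 to 0.71 (limma, unadjusted p = 0.032, adjusted p = 0.536). With normexp the difference was 0.08. Among the 4315 probes within 0.5 log2 of its mean signal, 15.4% had an unadjusted p under 0.05. The 2 Dcx probes do not give a common direction for the gene.

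Prox1, the homeodomain factor that fixes granule neuron identity and stays on in mature granule neurons, varied between arrays without following the groups. It read 0.81 and 1.15 in the controls and 1.27 and 0.98 in iodine. The highest and lowest values were on 20-fold iodine replicate 2 and control replicate 2, while the other two arrays lay between them. The difference was 0.15 (95% confidence interval -0.32 to 0.61, limma, adjusted p = 0.834), and its sign turned without control replicate 2 (-0.02) or the iodine array of the same number (-0.003). Markers of mature granule neurons were, like Prox1, lower on control replicate 2 and 20-fold iodine replicate 3 than on the other two arrays, with median deviations from their 4-array means of -0.06 and 0.13 in the controls and 0.11 and -0.11 in iodine over 14 genes. The summed signal of these 14 was 49.5 and 56.4 in the controls and 56.3 and 48.2 in iodine, and its part in the Prox1 values was not tested.

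**Figure D3:**
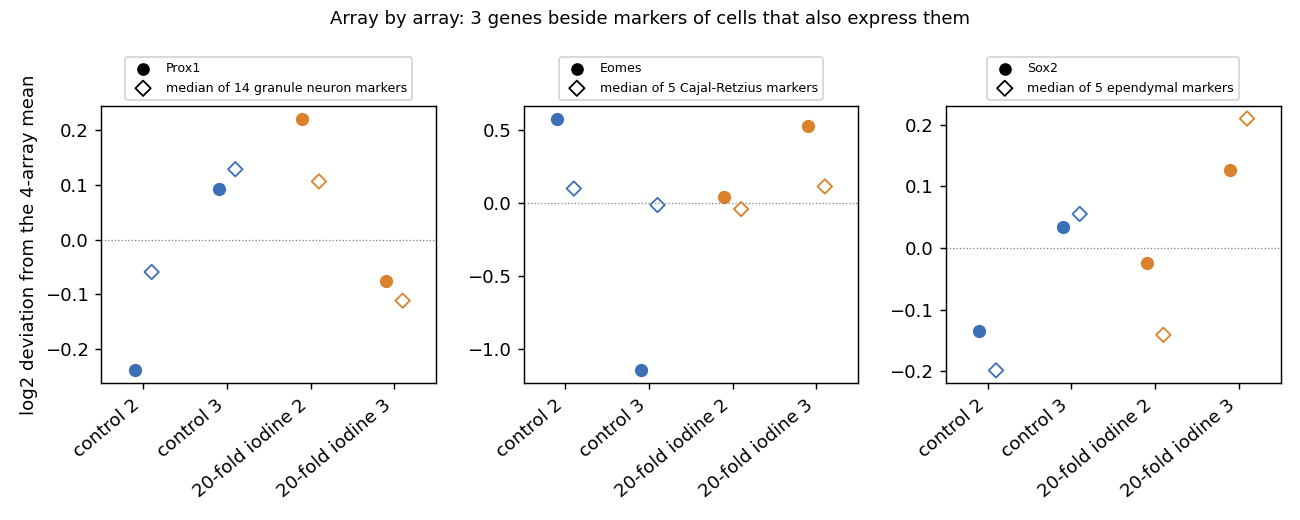
Deviation of Prox1, Eomes and Sox2 (filled circles) from their mean over the 4 arrays, in log2 units, beside the median deviation of markers of mature granule neurons (14 genes), Cajal-Retzius neurons (5) and ependymal cells (5) (open diamonds), with controls in blue and 20-fold iodine in orange. Prox1 and the granule neuron markers are lower on control replicate 2 and 20-fold iodine replicate 3 than on the other arrays. Eomes is lowest on control replicate 3, and the median of the Cajal-Retzius markers on 20-fold iodine replicate 2. Sox2 and the ependymal markers are highest on 20-fold iodine replicate 3.

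The plot of members among all genes places the 9 values in the spread of the array. Over all 38228 probes the median size of the difference was 0.11, in either direction. The size of the difference was above that of 98.7% of probes for the dimmer Hes5 probe, 97.3% for Eomes, 89.4% for the brighter Hes5 probe and 84.5% for Nes. Hopx, with the opposite sign, lay between the brighter Hes5 probe and the dimmer Dcx probe, which was above 92.3%. For the brighter probes of Sox11 and Dcx it was above 21.0% and 25.8%, and for Prox1 above 62.1%.

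**Figure D4:**
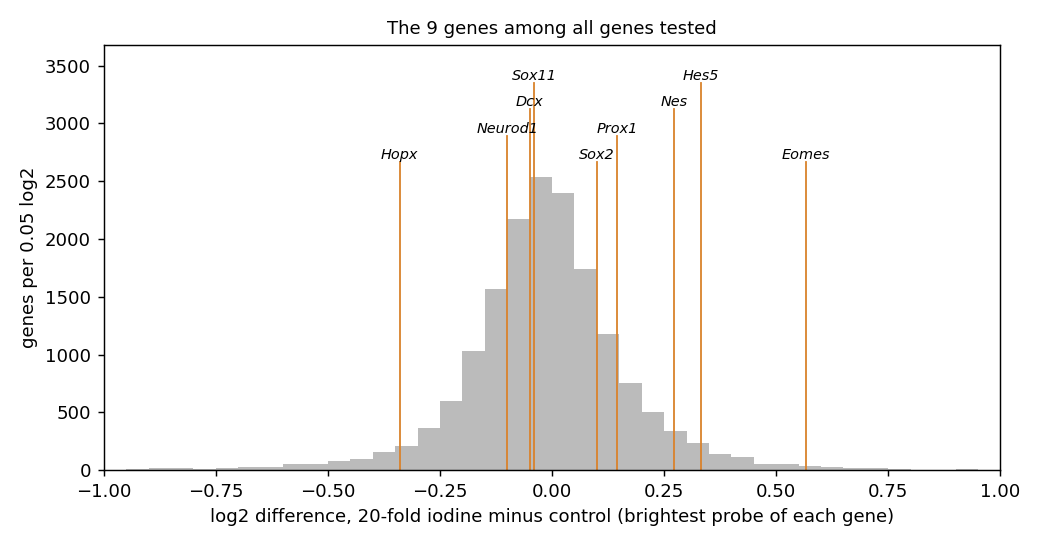
Number of genes per 0.05 log2 of difference, 20-fold iodine minus control, over 16793 genes by their brightest probe (grey), with the 9 genes as orange lines whose heights only separate the names. Sox11, Dcx, Neurod1, Sox2 and Prox1 lie between -0.10 and 0.15, Hopx at -0.34, and Nes, Hes5 and Eomes between 0.27 and 0.57.

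The wider set of radial glia-like stem cell genes stood on both sides of 0. Of 23 listed genes 22 were tested, 11 higher and 11 lower, with a median of -0.03, and 0 passed limma's adjusted threshold. At an unadjusted p under 0.05 there were 7, of which 5 were higher and 2 lower, beside 6.36% of all genes by their brightest probe (3.48% higher and 2.88% lower). The higher ones were Hes5 and Nes, with Sox9, a SOX factor of stem cells and astrocytes, at 0.37 ± 0.10 (SE), Fabp7, a fatty acid binding protein of radial glia, at 0.35 ± 0.12, and Gfap, the filament protein of astrocytes and radial glia, at 0.29 ± 0.09. The lower ones were Prom1, the membrane glycoprotein CD133, at -0.80 ± 0.19 and Hes1, another Notch-responsive repressor, at -0.32 ± 0.09. Sox9 and Prom1 follow from the naming rule, and Fabp7, Gfap and Hes1 were chosen after their values were seen. Prom1 was dim, at -3.65 and -4.13 in the controls and -4.63 and -4.75 in iodine, though well above background on all 4 arrays. The lowest signals with that flag were from -5.15 to -5.01. A second, still dimmer probe of Prom1 gave 0.31. The groups did not overlap for 12 of the 22, against 39.9% of all genes.

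Hes5 and Hes1 thus had opposite signs. Hes1 read -2.10 and -1.996 in the controls and -2.39 and -2.34 in iodine, with no overlap between the groups (limma, unadjusted p = 0.019, adjusted p = 0.532). Among other Notch genes, the receptor Notch1 had -0.30 ± 0.18 (SE) and Notch2 0.02 ± 0.13, the ligands Dll1 and Jag1 -0.14 ± 0.21 and -0.08 ± 0.14, Rbpj -0.10 ± 0.08 and the effector Hey1 0.00 ± 0.08. None of these 6 reached an unadjusted p under 0.05, and another probe of Rbpj gave 0.16. They are given because Hes5 is a Notch target, and were chosen after their values were seen. The list of Notch, BMP, WNT, hedgehog and growth factor signals held 34 tested genes of 36, 15 higher and 19 lower, with a median of -0.02. By brightest probe 1 reached an unadjusted p under 0.05, the BMP receptor gene Bmpr1b at 0.30 ± 0.09, followed by Wnt7a, a WNT ligand, at 0.37 ± 0.15. Of the list's dimmer probes, only a Fgfr1 probe at 0.30 and a Wnt7b probe at 0.31 reached that limit.

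Astrocyte markers were examined because astrocytes share the stem cell genes. All 6 were detected. By brightest probe 2 were higher and 4 lower, with a median of -0.08 and 0 at an unadjusted p under 0.05. Their summed signal was 258 and 259 in the controls and 240.3 and 227 in iodine. Most of that sum is the signal of Aldoc, a glycolytic enzyme of astrocytes, which had -0.18 ± 0.08 (SE). Aldh1l1, a folate enzyme, had -0.17 ± 0.10. The water channel gene Aqp4 and the glutamate transporter gene Slc1a2 had 0.13 ± 0.08 and 0.13 ± 0.09, and both were higher on both iodine arrays. The gap junction gene Gja1 had -0.09 ± 0.08 at its brightest probe and 0.42 and 0.37 at its other probes (limma, unadjusted p = 0.034 and 0.0075). The other probes of Aqp4 and Aldoc gave 0.20 and -0.13, with an unadjusted p above 0.05. Another Gfap probe gave 0.55 (limma, unadjusted p = 0.0021). Aldoc, Aldh1l1 and the brightest Gja1 probe were lower on both iodine arrays. Of all genes by their brightest probe, 17.9% were higher on both iodine arrays and 21.9% lower on both. Aqp4, Slc1a2 and Gja1 were chosen after their values were seen. The part of astrocytes in the Hes5 and Nes values was not tested.

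Cell cycle genes, which dividing progenitors express, had a median of -0.15 over 17 tested genes of 18, by brightest probe. Of these 6 were higher, 11 lower and 0 at an unadjusted p under 0.05. A dimmer probe of the cyclin gene Ccnd2 gave -0.34 (limma, unadjusted p = 0.018). Pcna, the sliding clamp of DNA replication, had -0.22 ± 0.08 (SE) and Ccnb1, a mitotic cyclin, -0.22 ± 0.08. Mki67, the common proliferation label, read -2.02 and -2.09 in the controls and -2.11 and -2.46 in iodine, a difference of -0.23 ± 0.14, and was chosen after its values were seen. Leaving out 20-fold iodine replicate 3 gave these genes a median of -0.003, and normexp a median of 0.006.

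Lists of the later steps had medians near 0, and single arrays moved them to either side. Intermediate progenitor and neuroblast genes had a median of -0.04 over 9 tested of 12, with 4 higher and 5 lower, and from -0.09 to 0.05 with single arrays left out. Sox4, a relative of Sox11, had 0.15 ± 0.10 (SE) and the RNA-binding protein gene Elavl2 -0.13 ± 0.09, with a dimmer probe of Elavl2 at 0.36. Immature neuron genes had a median of 0.01 over 19 of 19, with 10 higher and 9 lower, and from -0.05 to 0.05 with single arrays left out. Calb2, the calcium-binding protein calretinin, had 0.35 ± 0.24 and the transcription factor gene Bcl11b 0.18 ± 0.14. Mature granule neuron genes had a median of -0.004 over 15 of 15, with 7 higher and 8 lower, and from -0.12 without 20-fold iodine replicate 2 to 0.11 without 20-fold iodine replicate 3. Pdzd2 and Maml2 had -0.32 ± 0.13 and -0.22 ± 0.10. By brightest probe, none of these 3 lists held a gene at an unadjusted p under 0.05. Dimmer probes of Dcx, Dpysl5, Elavl2, Rbfox3 and Glis3 reached it, higher in iodine, and so did a dimmer Pdzd2 probe, lower in iodine.

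**Figure D5:**
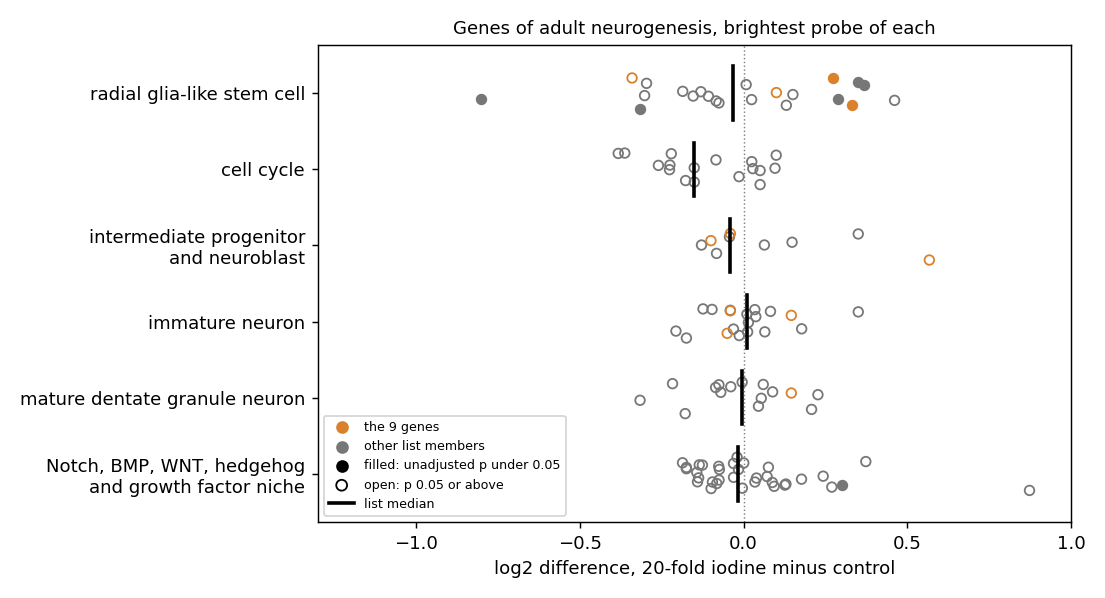
Log2 difference, 20-fold iodine minus control, of each tested gene in 6 lists of adult neurogenesis, by its brightest probe, with the 9 genes in orange, other genes in grey, filled points for an unadjusted limma p under 0.05 and a black bar at the list median. Filled points lie on both sides of 0 among the stem cell genes, and the 3 lists from neuroblast to mature granule neuron have none.

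Markers of hippocampal neurons were detected, as the tissue label implies. Pyramidal markers of CA1 (5 of 5) and of CA2 and CA3 (5 of 6), and granule neuron markers (15 of 15) were well above background on 2 or more arrays. Markers of neighbouring tissue differed between arrays, most of all those of choroid plexus, whose 5 genes had a summed signal of 161 and 143 in the controls and 52.8 and 268 in iodine. These 5 markers were well above background on every array, and their part in the members' values was not tested.

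By the rule fixed for likeness, the genes whose brightest probe lay closest to Hes5 over the 4 arrays were Cenpb, a centromere protein gene, Cdhr1, a cadherin gene, and Prss54, a serine protease gene. Their Euclidean distances, after subtracting each gene's mean, were 0.02, 0.03 and 0.03 log2 units. With 4 arrays such closeness is a description of these arrays only.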

How the data were processed

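Scanner files of 4 arrays were used as deposited. Per the file headers they were made with Agilent Feature Extraction 12.1.1.1, and the deposited processed signal is an intensity that was background-subtracted and detrended within the array, with no scaling across arrays. Intensities of the median spot and background served 1 alternative, in place of mean signals planned for it. Outlier and background flags (0 or 1) are the authors' deposited values.

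Log2 processed signals were averaged per probe without outlier spots (47 to 70 per array), and each array's 75th percentile (159, 154, 149.7 and 144 units) was subtracted. The well-above-background flag held for 37533 to 37921 of 56605 probes per array and 0 spots were saturated. The number of arrays limits the precision. Probes well above background on at least 2 arrays entered limma 3.58.1 (lmFit, eBayes, two-sided, R 4.3.3), 38228 in all, with Benjamini-Hochberg adjustment over them. The fit was tested on simulated data. Plots were drawn with matplotlib 3.10.9.

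RefSeq accessions named 58.3% of probes through a gene table of GRCm38.p6. The header names an older build, so probe positions are not given. Each gene in a list is represented by its brightest kept probe. Named genes were the 9 members, the 2 genes of smallest unadjusted p in each list, and 3 genes like the member of smallest p. Members and lists were chosen with earlier results of these data known. No list was tested as a set. Values for members use every detected probe. Deviations of same-numbered arrays from their group means correlated at r = -0.02 over probes (genes are not independent replicates). These values show no shared deviation by number, but cannot exclude a pairing in the design. The labels do not say whether the numbers pair samples. Alternatives covered background correction, normalization, scaling, filter, variance model, probes per gene, a replicate block and single arrays left out.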

Additional observations from a re-analysis of the deposited data

How the results depend on the processing

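No probe of the 9 genes passed the adjusted threshold in any of the 13 alternatives (limma, adjusted p from 0.232 to 0.997 over 148 values), and 136 of these values kept their sign. Part of that count was fixed in advance. The filters, the variance model, 1 probe per gene and the replicate block leave a probe's difference unchanged, so no sign could turn there. The mean of a gene's probes likewise leaves genes with a single kept probe unchanged. Both Hes5 probes, Nes, Hopx, Sox2 and the dimmer Dcx probe kept their sign in all alternatives that gave a value. The stricter filter left out Eomes and the dimmer Dcx probe. Over all probes the adjusted threshold was passed by 25 with normexp (offset 50) and by 53 with an intensity trend and robust variances, none of them of the 9 genes, and by 0 in each fit with an array left out. The cause was not tested.

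Signs turned to -0.0021 with normexp for the dimmer Sox11 probe and to 0.17 for Dcx with the mean of its probes, where the construction adds the dimmer probe. With single arrays left out the differences ranged from -0.083 to 0.14 (dimmer Sox11 probe), -0.11 to 0.029 (brighter Sox11 probe), -0.17 to 0.071 (brighter Dcx probe), -0.020 to 0.31 (Prox1, with -0.0028 in the fit lacking 20-fold iodine replicate 2), -0.28 to 0.079 (Neurod1) and -0.30 to 1.43 (Eomes). The median over the 9 genes, 0.10, was 0.042 with normexp, 0.11 with quantile normalization and 0.075 when scaled to probes detected on all arrays. The stricter filter gave 0.030 over 8 genes, because it left out Eomes, and the differences of those 8 did not change. For all 9 genes the median was 0.15 with the mean of probes and -0.048 to 0.079 with single arrays left out. An array left out leaves 1 in its group, assumed to vary like the other group.

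With the replicate number as a block, 0 probes passed and the median over the 9 genes was 0.10, so the block changed no call at the adjusted threshold. It took Nes out of the member probes at an unadjusted p under 0.05, which went from 4 to 3. The limma fit with the block gave Nes an unadjusted p = 0.0501. The number of probes at an unadjusted p under 0.05 was 3451, and 1239 with 1 probe per gene, where fewer features are tested. Dim signals limit Eomes and the second probes of Hes5 and Dcx, and Prom1 in the wider stem cell list.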

Other observations

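Second and further probes of a gene, dimmer than its brightest, were more often higher in iodine. Among 87 further kept probes of 64 listed genes, 58 were higher in iodine, and 13 had an unadjusted p under 0.05, of which 11 were higher and 2 lower (limma). The brightest probes of the same 64 genes gave 29 higher, with 5 higher and 1 lower at that limit. Over all named genes, further probes had a median difference of 0.04 and 59.7% above 0 (7807 probes), against -0.01 and 45.7% for brightest probes (16793 genes). An unadjusted p under 0.05 was reached by 14.9% of the 87 and by 10.6% of the 7807 (7.7% higher and 2.88% lower). For brightest probes the share was 9.38% of the 64 and 6.36% of all genes. Examples, chosen after their values were seen, are Dpysl5, a collapsin response mediator of immature neurons, with -0.10 at its brightest probe and 0.74 at the other, and Rbfox3, the neuronal marker NeuN, with 0.04 at its brightest probe and 0.15 and 0.39 at the others. The dimmer Hes5 and Dcx probes are among the 87.

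Among interneuron markers 5 of 5 were lower in iodine, with a median of -0.14 and 0 at an unadjusted p under 0.05. Gad1, which makes GABA, had -0.20 ± 0.09 (SE) and Pvalb -0.14 ± 0.10. Thalamus and habenula markers had median deviations from their 4-array means of -0.09 and -0.19 in the controls and -0.15 and 0.51 in iodine. Prkcd, a protein kinase C gene of the thalamus, had 0.70 ± 0.30 and Tcf7l2, a WNT effector gene, 0.48 ± 0.46. Both were highest on 20-fold iodine replicate 3 and follow from the naming rule, the smallest unadjusted p. Of the 6 markers 4 were higher in iodine and 2 lower. The lower ones, Tac1 and Pou4f1, were lowest on 20-fold iodine replicate 3, and were chosen after their values were seen.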
